A study of Rattus norvegicus with 352 samples.

Results

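The hemispheres described here are 5 brain libraries, 1.46% of a cohort, whose prolactin transcript stood far above that of nearly all others. A level is log2(CPM + 1), and CPM stands for estimated counts per 1000000 counts of the library with no correction for transcript length. Libraries with a level of Prl of at least 3 form the Prl-high set (n = 5), 2 libraries between 1 and 3 form a Prl-intermediate set, and all other libraries, below 1, form the Prl-low set. The Prl-low set is thus every library in the table but these 7, and 10 labelled samples are not analysed here. The sets were chosen by the measured level of Prl, so its values are a description and no test was made on it.

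All sets hold whole brain hemispheres of naive outbred rats of the heterogeneous stock, with no treatment, and no age, genotype or further allele is given in the labels used here. The cohort was collected for statistical genetics, its tissue was frozen, and polyA RNA was sequenced with strand kept. Each library is taken as 1 rat, so a p-value covers only how these libraries vary. The labels put all libraries in a single group and do not say how the pituitary was treated at dissection.

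The pituitary gland hangs below the hypothalamus. Its anterior lobe holds separate endocrine cell types, each known by the hormone it makes: lactotrophs make prolactin, somatotrophs growth hormone, corticotrophs (and melanotrophs of the intermediate lobe) pro-opiomelanocortin, thyrotrophs thyrotropin and gonadotrophs luteinizing and follicle-stimulating hormone. The last of these hormones share an alpha subunit, encoded by Cga, with thyrotropin. The factor POU1F1 drives the lactotroph, somatotroph and thyrotroph lineages, and the hypothalamus itself also makes Pomc transcript.

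The Prl-high libraries are called A, B, C, D and E, in order of falling Prl, and every list of 5 values follows that order. They held 25232253, 39872269, 16841368, 21163080 and 27333074 estimated counts, within the range of 5418230 to 42980793 over all libraries (median 21881769). Neither the log2 library total (mean 24.58 in Prl-high and 24.34 in Prl-low libraries; two-sided permutation test, 100000 permutations, p = 0.146) nor the number of genes above 0 (26767 in Prl-high and 26252 in Prl-low libraries; p = 0.0792, both adjusted to 0.146) passed 0.05. The 5 libraries lie in 4 blocks of like identifiers, and only library B and library C share one. Library B stood apart from the other 4: it had the second highest total and the most genes above 0 of all libraries. Called genes that rest on it are given with and without it, except in fits that used another level filter.

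The label of pituitary tissue was checked against the defining markers other than Prl, which the rule itself sets high. Gh1 was above every Prl-low library in all 5 Prl-high hemispheres, Pomc in 3 of them, and Cga and Tshb in library B alone. The full set of anterior lobe hormones therefore stood out in 1 hemisphere, and the others are described by the hormone transcripts they carried.

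Proximal promoters of 2 hormone genes are shown because their transcripts parted company in these hemispheres: Prl was high in all 5 and Tshb in 1. They are the 200 bases before the start site in the RefSeq table for GRCr8, 5′ to 3′ on the gene's strand. Prl is chr17:38298218-38298417 (minus strand) and Tshb chr2:192918055-192918254 (minus strand). The start site used for Prl lies inside the gene span given below, so the 3′ end of its window falls within that span.
Prl: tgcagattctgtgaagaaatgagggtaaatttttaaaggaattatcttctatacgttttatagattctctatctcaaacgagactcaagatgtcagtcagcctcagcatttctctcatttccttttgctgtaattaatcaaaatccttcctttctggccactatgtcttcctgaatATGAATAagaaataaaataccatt
Tshb: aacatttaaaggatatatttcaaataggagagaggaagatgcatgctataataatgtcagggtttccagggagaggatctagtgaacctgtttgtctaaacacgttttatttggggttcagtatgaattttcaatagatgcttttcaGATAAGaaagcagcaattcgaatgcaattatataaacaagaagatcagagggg
Capitals mark matches, on either strand, to a POU1F1-type motif, ATGNATA, and a GATA-type motif, GATAAG, which do not overlap here. The Prl window held the POU1F1-type letters at position -24 and the Tshb window the GATA-type letters at position -53, counted back from the start site. Such letters were present in 6.76% and 4.90% of the 33469 promoter windows of this length, so a match is a description and not a binding site. Of 12 genes looked up, 8 were in the table. Gh1, Fshb, Pou1f1 and Pitx1 were not among them.

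Prolactin transcript was present at some level in few hemispheres. Prl (chromosome 17, 38287355 to 38298234 on GRCr8) stood at 8.05, 8.0, 7.89, 4.41 and 3.45 in the Prl-high libraries, against a median of 0.00 and a highest level of 0.62 in the Prl-low libraries. The first 3 levels rest on 6650, 10193 and 3968 estimated counts, and the last 2 are 20.3 and 9.95 CPM. The set thus fell into a trio near a level of 8 and a lower pair. Just inside the threshold was library E at 3.45, and just outside were libraries F at 1.77 and G at 1.53, the Prl-intermediate libraries. Prl was listed at 0 in all Prl-low libraries but 26. A count of 0 allows up to 3 counts, or 0.137 CPM in a library of median size. The Prl-high libraries held 98.9% of the summed Prl CPM of the cohort. In these bulk samples, fewer cells of a type and less RNA per cell cannot be told apart.

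Growth hormone transcript accompanied prolactin in every Prl-high hemisphere. Gh1 (chromosome 10, 91727883 to 91729860) stood at 5.26, 10.24, 5.58, 2.86 and 1.82 in the Prl-high libraries, against a median of 0.00 and a highest level of 1.38 in the Prl-low libraries. In CPM these are 37.3, 1208, 46.9, 6.24 and 2.52. The sets did not overlap, and library B was far above the other 4 Prl-high libraries. The difference in mean level was 5.13 (SE 0.16), and 3.86 without library B. Here and below the SE pools the variance of both sets. The standard deviation (SD) of Gh1 was 3.26 in the Prl-high and 0.09 in the Prl-low libraries. The SE and the limma p-values thus understate how far the 5 hemispheres varied among themselves. Gh1 passed the low-level filter of the test only through the Prl-high set, so its limma adjusted p of 1.83e-98 is not given as support. A filter blind to the sets asked for 1 CPM in at least 5 libraries of any set. Gh1 met it only through the Prl-high libraries too, since outside them only library H, at 1.60 CPM, reached 1 CPM. Its limma, Benjamini-Hochberg adjusted p of 1.41e-98 under that filter is therefore not given as support either. Gh1 was the 1 gene of 16958 tested (0.00590%) for which every Prl-high library exceeded every Prl-low library. The Prl-high libraries held 99.5% of the summed Gh1 CPM.

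**Figure D1:**
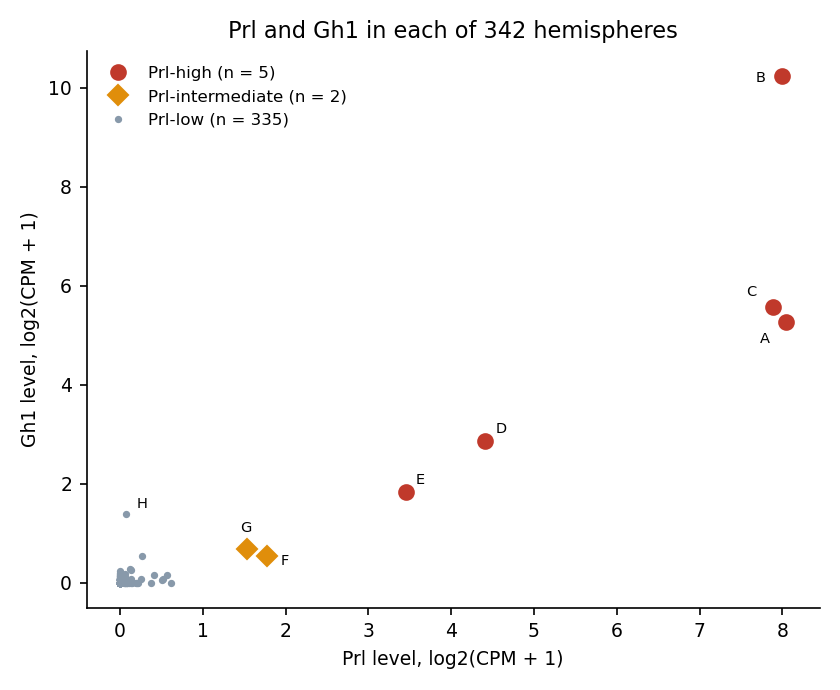
Level of Gh1 (vertical axis) against level of Prl (horizontal axis), both log2(CPM + 1), in each hemisphere, with Prl-high libraries (n = 5) as red circles, Prl-intermediate (n = 2) as orange diamonds and Prl-low as grey points. The Prl-high libraries run from 3.45 to 8.05 in Prl, with library B highest in Gh1 at 10.24, and library H, at 1.38 in Gh1, is the highest of the Prl-low libraries.

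The precursor of corticotropin and melanotropin, Pomc (chromosome 6, 32659137 to 32665175), was also higher. Its levels were 3.14, 6.30, 4.58, 2.23 and 1.96 in the Prl-high libraries, against 0.50 at the lowest, 1.88 at the median and 2.70 at the highest in the Prl-low libraries. Library A, library B and library C were above the whole Prl-low range, while library D and library E lay inside it. The difference was 1.84 (SE 0.23, limma adjusted p = 3.86e-10), and 1.18 with an adjusted p of 0.0183 without library B. The SD of Pomc was 1.81 in the Prl-high and 0.49 in the Prl-low libraries. Unlike Prl and Gh1, Pomc was above 0 in all Prl-low libraries. The order of the trio also differed between genes: Prl was at 8.05 in library A and 7.89 in library C, whereas Pomc was at 3.14 in library A and 4.58 in library C.

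The glycoprotein hormone genes stood above the Prl-low range chiefly in library B. Cga (chromosome 5, 54283109 to 54295464), the shared alpha subunit, was at 1.23, 4.37, 2.37, 1.62 and 0.70 in the Prl-high libraries, against 0.00 to 3.31 in the Prl-low libraries (median 1.09). Only library B was above that range, and the difference of 0.98 (SE 0.39) had a limma adjusted p of 0.943. The thyrotropin subunit Tshb was at 0.26, 3.10, 0.78, 0.89 and 0.53 in the Prl-high libraries, against a median of 0.60 and a highest level of 1.88 in the Prl-low libraries. The luteinizing hormone subunit Lhb was at 0.80, 1.61, 0.68, 0.09 and 0.27 in the Prl-high libraries, against a highest level of 0.95 in the Prl-low libraries. For Tshb and Lhb, too, library B was the only Prl-high library above every Prl-low one. The follicle-stimulating hormone subunit Fshb was at 0.06, 2.08, 0.24, 0.00 and 0.00 in the Prl-high libraries, against a highest level of 0.20 in the Prl-low libraries. Fshb was thus above the Prl-low range in library B and, by 0.04, in library C, where it rests on 3 estimated counts, the floor used here. Tshb, Lhb and Fshb were too low in most libraries of both sets to enter the test. With no level filter, the limma difference was 0.45 for Fshb (adjusted p = 8.21e-15), 0.41 for Lhb (4.60e-04) and 0.44 for Tshb (0.917). Library B was the highest of the 5 for each, and this fit was not run without it. Among the Prl-high libraries only library B reached 1 CPM in Fshb and Lhb, so their p-values are not given as support.

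**Figure D2:**
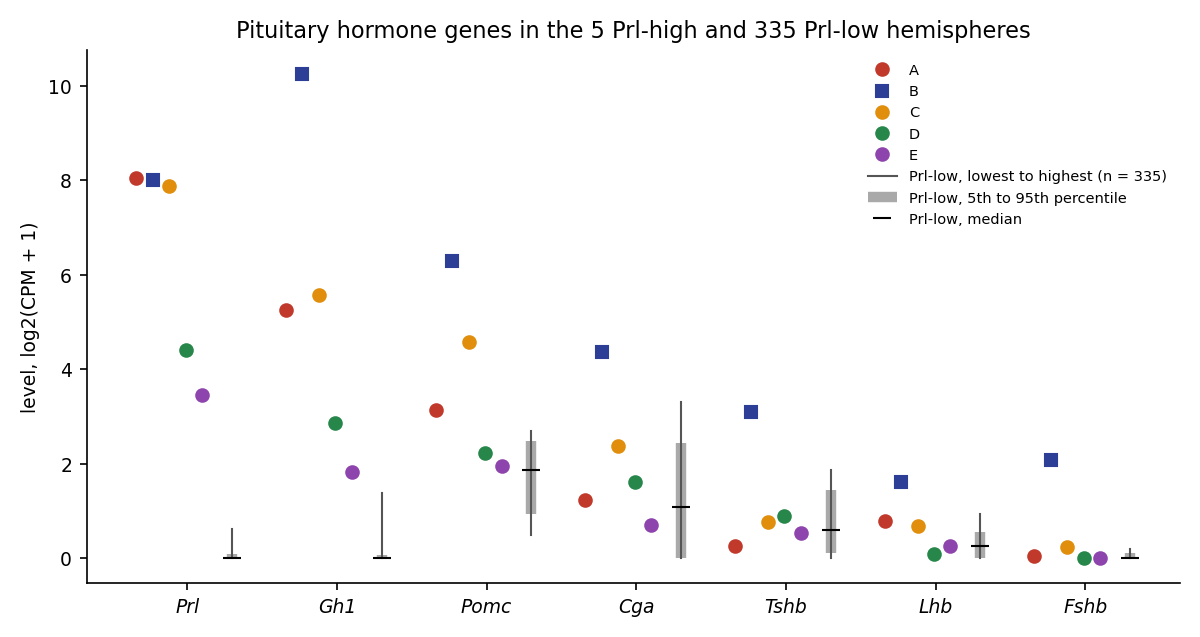
Level, log2(CPM + 1), of the 7 pituitary hormone genes in each Prl-high library (coloured points, left of each pair) and in the Prl-low libraries (right of each pair; the thick bar runs from the 5th to the 95th percentile, the thin line from the lowest to the highest of them). Prl and Gh1 separate all 5 libraries from the rest, Pomc separates 3, and Cga at 4.37 and Tshb at 3.10 exceed the Prl-low libraries in library B alone.

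Across all genes the Prl-high hemispheres hardly differed from the rest. Of 16958 genes tested, 3 were higher (0.0177%) and 2 were lower (0.0118%) at a limma adjusted p under 0.05, 0.0295% in all. The 3 higher genes were Gh1, Pomc and Epcam, and all 3 belong to the pituitary lists, Gh1 having entered only through the Prl-high set. At an unadjusted p under 0.05 there were 894 genes. The differences of 98.4% of the genes lay within 0.25 of 0, with a median of 0.01. Epcam, an adhesion molecule of epithelial cells, was at 1.52, 2.79, 1.09, 1.43 and 1.02 in the Prl-high libraries, against a median of 1.11 and a highest level of 1.74 in the Prl-low libraries. Its difference of 0.46 (SE 0.09, adjusted p = 0.00748) was 0.15 with an adjusted p of 0.996 without library B, the only one of the 5 above the Prl-low range. The SD of Epcam was 0.71 in the Prl-high and 0.19 in the Prl-low libraries.

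Each of the 2 lower genes rested on a single library, and both were named after their values were seen. The ribosomal protein gene Rpl30 was at 6.27, 5.91, 1.35, 6.45 and 5.19 in the Prl-high libraries, against 4.93 to 6.75 in the Prl-low libraries. Its difference of -1.12 (SE 0.25, limma adjusted p = 0.0427) was -0.20 with an adjusted p of 0.995 without library C. Atp5mkl1 was at 4.0, 2.63, 4.44, 4.12 and 4.26 in the Prl-high libraries, against 3.56 to 4.84 in the Prl-low libraries. Its difference of -0.39 (SE 0.09, adjusted p = 0.0455) was -0.07 with an adjusted p of 0.996 without library B. The 5 values of each gene thus overlap the Prl-low range in 4 of 5 libraries. Without library B, 2 genes were higher and 1 was lower.

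**Figure D3:**
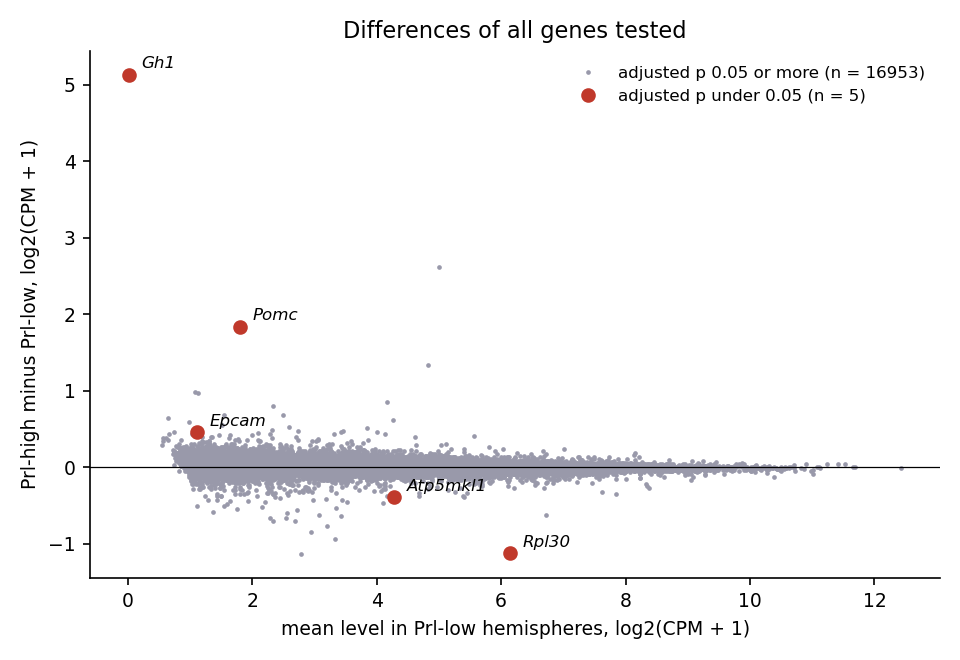
Difference in mean level between Prl-high (n = 5) and Prl-low libraries (all others below a Prl level of 1), in log2(CPM + 1) units, against mean level in Prl-low libraries, for the 16958 genes tested, with the 5 genes past an adjusted p of 0.05 named. Gh1 at 5.13 and Pomc at 1.84 are the largest called differences, and the uncalled point at 2.62 is Xist.

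Transcription factors of the pituitary lineages stood above the Prl-low range in 1 or 2 of the Prl-high libraries at most. Of 15 listed, 9 could be tested, 0 passed in limma, 1 was higher at an unadjusted p under 0.05, and the median difference was 0.09 beside 0.01 for all genes. In library B, 3 of the 15 were above every Prl-low library. Pou1f1, the factor of the lactotroph, somatotroph and thyrotroph lineages, was at 0.74, 2.93, 0.24, 0.07 and 0.05 in the Prl-high libraries, against a highest level of 0.52 in the Prl-low libraries. Library A and library B were above that range and the other 3 were inside it. Pitx1, a factor of the whole gland, was at 0.31, 1.83, 0.44, 0.25 and 0.10 in the Prl-high libraries, against a highest level of 0.66 in the Prl-low libraries. The homeobox gene Six6 was at 0.84, 2.58, 0.70, 0.95 and 0.62 in the Prl-high libraries, against a highest level of 1.15 in the Prl-low libraries. For both genes only library B lay above the Prl-low range. These 3 genes were too low to enter the test. With no level filter their limma differences were 0.68 for Pou1f1 (adjusted p = 6.71e-14), 0.44 for Pitx1 (3.11e-06) and 0.52 for Six6 (5.37e-05). Under a filter blind to the sets the limma adjusted p of Six6 was 5.63e-04. Library B was the highest of the 5 for each gene, and these fits were not run without it. Among the Prl-high libraries only library B reached 1 CPM in these 3 genes, so none of these p-values is given as support. The corticotroph factor Tbx19, the gonadotroph and thyrotroph factor Gata2 and the gonadotroph factor Nr5a1 were inside the Prl-low range in all 5. Tbx19 was at 1.26, 1.52, 1.40, 1.42 and 1.52 in the Prl-high libraries, against 0.71 to 2.30 in the Prl-low libraries. Lhx3, Lhx4, Pax7, Foxl2, Neurod4, Eya1, Foxe1 and Hesx1 were likewise inside it, and Hesx1 was at 0.00 in all 5. Isl1 was inside it in 4 and, at 0.56 in library C, under the lowest Prl-low level of 0.62.

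Receptor genes of the gland, for hypothalamic and other signals, showed the same division. None of 8 tested of 11 passed in limma, 1 was higher at an unadjusted p under 0.05, and the median difference was 0.01. The growth hormone-releasing hormone receptor gene Ghrhr was at 0.00, 1.20, 0.31, 0.13 and 0.10 in the Prl-high libraries, against a highest level of 0.70 in the Prl-low libraries. The gonadotropin-releasing hormone receptor gene Gnrhr was at 0.21, 1.04, 0.38, 0.13 and 0.29 in the Prl-high libraries, against a highest level of 0.63 in the Prl-low libraries. Library B alone was above the Prl-low range for both, and also for the oestrogen receptor gene Esr1 (3.02 against 2.91). The dopamine receptor gene Drd2, through which dopamine restrains lactotrophs and which striatal neurons also express, was at 4.72, 4.74, 4.78, 4.97 and 4.72 in the Prl-high libraries, against 4.31 to 5.11 in the Prl-low libraries. Trhr, Crhr1, Sstr2, Sstr5, Avpr1b, Ghsr and Prlr were inside the Prl-low range in all 5.

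Genes of secretory granules and prohormone processing, which neurons also express at high level, did not separate the sets. All 11 were tested, 0 passed in limma and 0 had an unadjusted p under 0.05, with a median difference of -0.01. Their summed CPM was 3968 to 4280 in the Prl-high libraries, against 3874 to 4570 in the Prl-low libraries. Chga, a granin, was at 7.48 to 7.53 in all 5 Prl-high libraries, against a median of 7.51 in the Prl-low libraries, and the processing enzyme genes Pcsk1 and Pcsk2 differed by -0.05 and -0.04. Each of the 5 lay inside the Prl-low range for every granule gene but Scg5, whose level of 8.13 in library B was under the lowest Prl-low level of 8.18.

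Support and stem cell genes of the gland gave 1 called gene of 11, Epcam, with a median difference of 0.07. Krt18, a keratin, was at 1.60, 2.02, 1.85, 2.17 and 1.96 in the Prl-high libraries, against 0.99 to 2.35 in the Prl-low libraries (difference 0.24, limma adjusted p = 0.943). Of 10 other pituitary genes, 8 were tested and 0 passed, with 1 at an unadjusted p under 0.05. That gene was Dlk1, a Notch-related ligand found in hormone cells of the adult pituitary. It was at 4.20, 6.64, 4.68, 4.57 and 4.31 in the Prl-high libraries, against a highest level of 4.90 in the Prl-low libraries (difference 0.62, SE 0.16, adjusted p = 0.246). Only library B was above every Prl-low library. Dlk1 passed with voom weights (0.75, adjusted p = 8.13e-04), with a threshold of level 4, which leaves out library E (0.76, 0.0350), without library A (0.79, 0.0328) and with no level filter (0.62, 0.0400). Without library B its difference was 0.18 (adjusted p = 0.996).

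Counting genes at least 1 level above every Prl-low library showed how unequal the 5 hemispheres were. There were 2 such genes in library A, 13 in library B, 3 in library C, 3 in library D and 1 in library E, with Prl counted. Of the 13 in library B, 11 belong to the pituitary lists, and the others, Serpina3c (1.58 in library B, against a highest level of 0.18 in Prl-low libraries) and Hepacam2 (1.89 against 0.53), were named after their values were seen. All but 7 of the Prl-low libraries had no gene that far above all other Prl-low libraries, and the highest count was 40, in a library with Prl at 0. Of 64 pituitary list members, 3, 15, 3, 1 and 1 were above every Prl-low library in the 5 Prl-high hemispheres. The same held for 0.212%, 0.554%, 0.313%, 0.206% and 0.212% of all genes tested. These are not like for like: only 50 list members were tested, and the 64 include genes too low to enter the test.

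**Figure D4:**
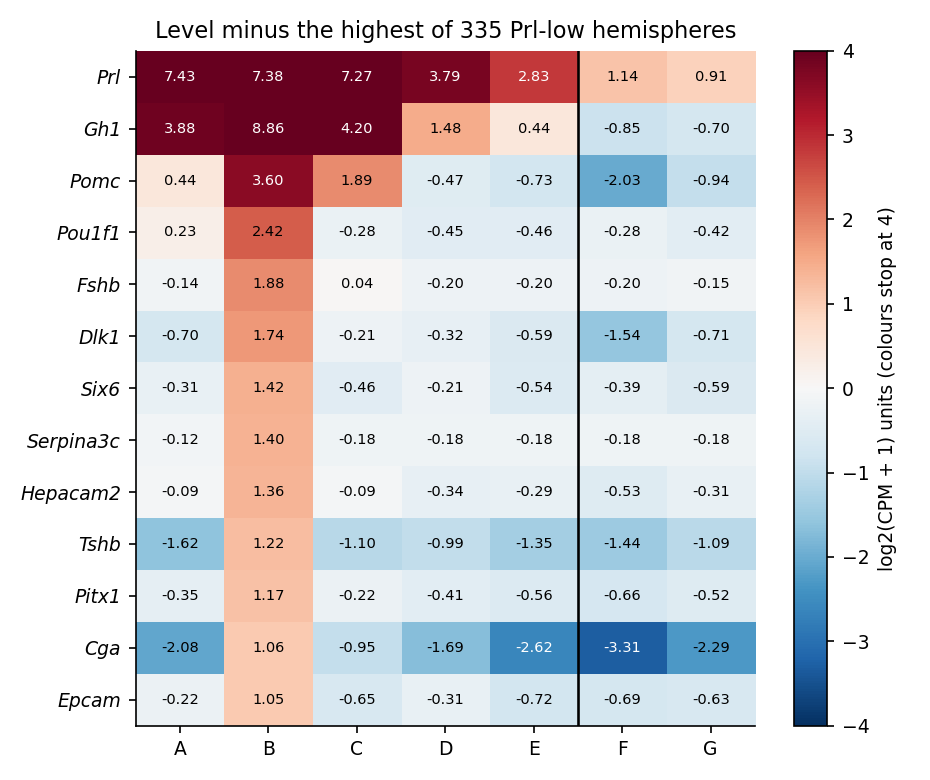
Level in each Prl-high library (5 columns) and each Prl-intermediate library (2 columns, right of the line) minus the highest level among the Prl-low libraries, in log2(CPM + 1) units, for Prl, Gh1 and the other genes at least 1 level above every Prl-low library in library B. Prl and Gh1 are above 0 in all 5 Prl-high columns, while Tshb, Pitx1 and Six6 are above 0 in library B alone.

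Growth hormone and prolactin transcripts stood in different proportions. The ratio of Gh1 to Prl counts, which is not length corrected and is compared only between libraries, was 0.141, 4.72, 0.199, 0.308 and 0.254 in the Prl-high libraries. The exact binomial 95% intervals, which cover counting error only, ran from 4.62 to 4.83 in library B and from 0.132 to 0.375 over the other 4. Library B was also the only one of the 5 in which the Y-linked gene Ddx3y was above 0. Ddx3y stood at 0.00, 6.29, 0.00, 0.00 and 0.00, and the X-inactivation RNA Xist at 9.60, 0.31, 9.48, 9.27 and 9.47. The same division appeared outside the Prl-high set. Of all libraries, 12 had at least 10 counts of Prl and Gh1 together. In the 2 with Ddx3y alone at a level of 3 or more, Gh1 made 82.5% (library B) and 97.1% (library H, 34 Gh1 counts and 1 Prl count). In the 9 with Xist alone at that level it made 9.09% to 24%, and in library I, where both were at that level, 68.8% (11 Gh1 counts and 5 Prl counts). The 9 shares did not overlap the other 3. This pattern was noticed in the data and was not tested, and 5 of the 12 libraries had fewer than 50 such counts.

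**Figure D5:**
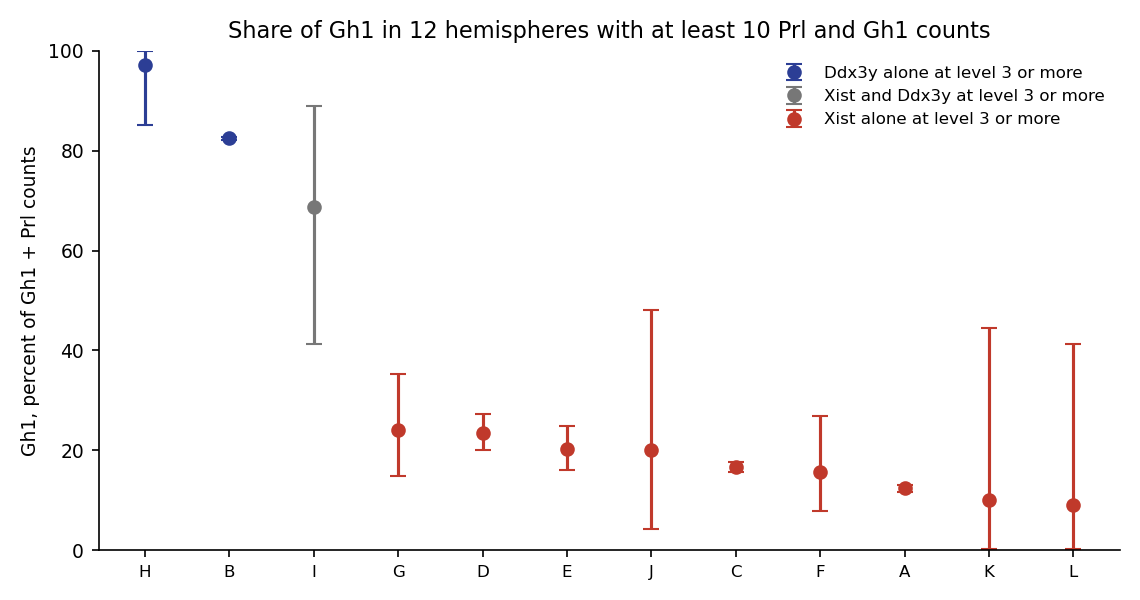
Gh1 as a percent of Gh1 and Prl counts together (vertical axis) in the 12 libraries with at least 10 such counts, ordered and coloured by which of Xist and Ddx3y reached a level of 3, with exact binomial 95% intervals as bars. The libraries with Xist alone lie between 9.09% and 24%, and those with Ddx3y alone at 82.5% and 97.1%.

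The mix of transcripts in library B was set beside the other 4 libraries by scaling it, as a description. For 10 pituitary genes, the excess of library B over the Prl-low median was multiplied by each library's Prl or Gh1 relative to library B. All 10 were above every Prl-low library in library B, and list members inside that range there were not scaled. The scaled counts thus follow in part from this choice of genes, and Prl is the gene that set the libraries apart. Scaled by Gh1, it put 3 of the 10 genes above the Prl-low 95th percentile in library A and library C. It put 0 above in library D and library E. Measured above were 4, 3, 1 and 0 in library A, library C, library D and library E. The genes were only partly the same: the scaled ones were Pomc, Fshb and Pou1f1 in both library A and library C. The measured ones were Pomc, Lhb, Pou1f1 and Epcam in library A, and Pomc, Lhb and Fshb (on 3 counts) in library C. Pomc in library C would be at a level of 2.72 by Gh1, and was measured at 4.58. Scaled by Prl, the excess of library B put 10 of 10 above in library A and library C and 3 of 10 in library D and library E. Tshb in library A, for example, would be 7.77 CPM by Prl and 0.730 CPM by Gh1, and was measured at 0.198 CPM.

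Markers of tissues that lie near the gland did not separate the sets in limma. Pituicytes and tanycytes (0 of 8 tested), hypothalamic neuropeptides (0 of 9), choroid plexus (0 of 10), meningeal fibroblasts (0 of 10), endothelium and pericytes (0 of 10) and pineal genes (0 of 6) gave no call. At an unadjusted p under 0.05 there was 1 gene in each of these lists except choroid plexus and meningeal fibroblasts, which had 0. The posterior lobe peptide genes, which hypothalamic neurons transcribe, were inside the Prl-low range: Oxt was at 2.88, 2.38, 3.80, 4.17 and 3.69 in the Prl-high libraries, against a median of 3.60 in the Prl-low libraries. Avp was at 3.25, 2.95, 3.37, 3.48 and 3.76 in the Prl-high libraries, against a median of 3.56. Summed hypothalamic neuropeptide CPM was 50.1 to 90.1 in the Prl-high libraries, against a median of 74.4 in the Prl-low libraries. The other 11 lists, of blood and immune cells, sensory and brain neurons, glia, activity, stress and sex-linked genes, also held 0 called genes. The pineal enzyme gene Tph1 was at 5.95, 1.51, 2.85, 0.77 and 4.81 in the Prl-high libraries, against a median of 1.32 in the Prl-low libraries. A level of 3 was reached by 2 of 5 Prl-high libraries and by 40.3% of the Prl-low libraries. With Tph1 as a term, the Gh1 difference was 5.14 and the Pomc difference 1.81.

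Library B differed from the Prl-low libraries in more than pituitary genes. Of 74 ribosomal protein genes, 46 were below every Prl-low library there, with a median 0.35 under the Prl-low median, as were 46 of 73 oxidative phosphorylation genes, beside 1.60% of all genes tested. In the other 4 Prl-high libraries these counts were 0 or 1. Both families were chosen after the values were seen, and their part in the results that rest on library B was not tested.

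The Prl-intermediate hemispheres, F and G, shared the Prl-low libraries as their comparison. Gh1 was at 0.53 and 0.68 in them, from 10 and 18 counts, against a median of 0.00 in the Prl-low libraries. Both levels lay under the highest Prl-low library. The difference was 0.59 (SE 0.07, limma adjusted p = 1.01e-12). The genes tested were those of the Prl-high comparison, which Gh1 entered only through the Prl-high set, so this p is not given as support. In all, 2 genes were higher (0.0118%) and 10 were lower (0.0590%), 0.0708% in all, and Gh1 was the single pituitary list member among them. The other higher gene was Wdr33, at 0.22 above the Prl-low mean. The lower genes included the choroid plexus transthyretin gene Ttr (8.29 in library F and 8.59 in library G, against a median of 9.29 in Prl-low libraries) and the myelin gene Mog (6.41 and 6.62, against 6.85). These 3 genes were named after their values were seen. Without library F the counts were 1 higher and 0 lower (0.985% of genes were lower at an unadjusted p under 0.05), and without library G they were 9 and 81. Pomc was at 0.67 and 1.76 and Cga at 0.00 and 1.02 in these libraries, inside the Prl-low range.

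Trace hormone transcript was also found among the Prl-low hemispheres. Prl was above 0 in 26 of them and Gh1 in 43, with both above 0 in 12, Prl alone in 14, Gh1 alone in 31 and neither in the rest. The highest Prl level among them was 0.62 and the highest Gh1 level 1.38, in library H. In that library Prl was at 0.07 and Pomc at 1.55, near the Prl-low median of 1.88.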

How the data were processed

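The authors deposited 1 table of log2 values per gene and library. Per the submitters' processing notes, reads were quantified with kallisto, with a version not given in the sources used here. Values were raised as powers of 2, less 1, to recover estimated counts, scaled to 1000000 per library and taken as log2(CPM + 1) with a pseudocount of 1, which understates changes of low genes. The labels name 352 samples; 342 were in the table (5 Prl-high, 2 Prl-intermediate and 335 Prl-low libraries) and 10 are not analysed here. Of 38354 genes, 38278 matched RefSeq (GRCr8).

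Genes with at least 1 CPM in at least 50% of either set were compared with limma 3.58.1 (mean-variance trend, R 4.3.3), with Benjamini-Hochberg adjustment over 16958 genes. Prl was left out. In simulated data for this comparison, 50 of 50 genes changed 2-fold and 46 of 50 changed 1.5-fold were recovered. The changed genes were all expressed well above 1 CPM, with a fixed dispersion and the same change in every Prl-high library. This recovery therefore does not cover genes near 1 CPM or changes in single libraries. Depth sets a floor of 3 counts, 0.0698 to 0.554 CPM by library. Named genes were hormone, transcription factor, receptor and granule list members, the 20 highest and 10 lowest called genes changed in at least 4 libraries, and called members of other lists; exceptions are stated. Some transcription factor genes are not reported here and were left out of that list. Members and lists were chosen with earlier results of these data known. Counts with fewer libraries, other thresholds, filters, scalings, voom weights and added terms were alternatives. Figures used matplotlib 3.10.9.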

Additional observations from a re-analysis of the deposited data

Results flagged for a closer look

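Among the 5 Prl-high libraries, 14 of 48 genes examined had 1 library far from the other 4, by a gap to its nearest neighbour over the whole range above 0.71. Chance flags about 1 in 20 groups, but the genes were not drawn blind: Serpina3c, Hepacam2, Rpl30 and Atp5mkl1 were examined because 1 library already stood apart in them, so their flags follow from that choice. Library B was the library apart in 12 of the 14. It was the highest for Tshb (3.10), Fshb (2.08), Pou1f1 (2.93), Pitx1 (1.83), Six6 (2.58), Ghrhr (1.20), Gnrhr (1.04), Epcam (2.79), Dlk1 (6.64), Serpina3c (1.58) and Hepacam2 (1.89), and the lowest for Atp5mkl1 (2.63). Of the other 2, Drd2 was highest in library D at 4.97, inside the Prl-low range, and Rpl30 was lowest in library C at 1.35, under every Prl-low library.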

How the results depend on the processing

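Gh1 kept its direction in all 17 alternatives (difference 3.86 to 10.42). Of the 17, a threshold of level 2 left the sets unchanged, and a threshold of level 4 was the same fit as leaving out library E. Differences with voom weights (10.42 for Gh1) and with a pseudocount of 0.1 (8.23) are not on the log2(CPM + 1) scale. Its adjusted p is not counted here, because Gh1 met the level filters only through the Prl-high set. Pomc kept its direction and its adjusted p under 0.05 in all 17 (difference 1.18 to 2.36). The share of genes higher in Prl-high libraries, 0.0177% (3 genes), became 0.0354% with a threshold of level 4, 0.357% with no level filter and 0.0531% with voom weights. It was 0.0118% to 0.0354% with 1 library left out. With no level filter, 90 of the higher genes had a mean level under 0.1 in the Prl-high libraries. The share lower, 0.0118% (2 genes), became 0.0413% with a threshold of level 4, 0.00590% with Tph1 as a term, 0.0236% with Xist, 0.00590% with the library total, 0.0138% with no level filter and 0.0531% with voom weights. It was 0 in limma with the identifier block as a term (408 genes at an unadjusted p under 0.05), and 0.00590% to 0.0413% with 1 library left out. Pituitary list members called numbered 9 with no level filter, beside 3, and 2 without library B. The 9 include Fshb, Lhb, Pou1f1, Pitx1 and Six6, whose p-values are not given as support. In the Prl-intermediate libraries, the share higher, 0.0118%, became 0.00590% with Xist, 0.00590% with the block, 0.384% with no filter and 0.772% with voom, and was 0.00590% to 0.0531% with 1 library left out. The share lower, 0.0590%, became 0.0236% with Xist, 0 with the block (808 genes at an unadjusted p under 0.05), 0.0857% with no filter and 0.236% with voom, and was 0 to 0.478% with 1 library left out. The cause of these shifts was not tested. Epcam missed the threshold at a pseudocount of 0.1 (0.66, adjusted p = 0.0909) and without library B. Genes under about 1 CPM in most libraries of both sets were compared only under the other filters. No paired analysis was possible because the labels give a single group with no replicate numbers shared between sets.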

Other observations

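In the Prl-low hemispheres, where Prl and Gh1 were mostly at 0, the levels of Cga, Tshb and Pomc went together. Thyrotropin subunits are also made by cells of the pars tuberalis, the thin part of the gland that lines the floor of the hypothalamus, and Pomc by hypothalamic neurons. Pearson's r was 0.86 for Cga and Tshb (Spearman's rho 0.84), 0.76 for Cga and Pomc (rho 0.78) and 0.66 for Tshb and Pomc (rho 0.67). Each r and rho had a permutation p of 1e-05, the smallest that 100000 permutations can give, and the 3 pairs adjusted to the same value. Leaving out the 2 libraries with the most extreme level of the first gene gave r of 0.86, 0.76 and 0.66. Within 7 identifier blocks it ran from 0.39 to 0.96, from 0.63 to 0.87 and from 0.29 to 0.82. The level of Cga had an r of 0.03 with the log2 library total. These libraries were picked by low Prl, and the correlations were chosen after the values were seen.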
